A study of Mus musculus with 12 samples.

Results

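The miRNAs described here are miR-122-5p (MIMAT0000246), miR-192-5p (MIMAT0000517) and miR-194-5p (MIMAT0000224), a set chosen by name because their precursors are strongly expressed in liver. They are 3 of the 874 mature miRNAs listed in the mouse tables of 12 serum small RNA libraries, and a miRNA missing from a library's table was taken as 0 counts. Serum came from 3 female athymic NCr nude mice aged 4 to 6 weeks, numbered 1046, 1047 and 1069. Each mouse was bled before cells of SH-SY5Y, an established human neuroblastoma line, were injected under the renal capsule, and again 2 weeks later. The RNA of every serum was split, and 1 aliquot was depleted of 5′ tRNA-halves, abundant tRNA fragments, by capture on biotinylated DNA probes and streptavidin beads. This gave 4 groups of 3 libraries each: before or after injection, depleted or undepleted. All mice carried the same nude background and all received tumour cells by surgery, so tumour growth, the surgery and the elapsed weeks cannot be told apart. No tissue was sequenced, so a liver origin was not checked in these data.

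miR-122 is the dominant miRNA of hepatocytes and is widely used as a circulating marker of liver injury. miR-192 and miR-194 are processed from shared primary transcripts, are abundant in liver, kidney and intestine, and belong to the miRNAs induced by p53. A mature miRNA recognises its targets mainly through its seed, the short stretch close to the 5′ end. Serum holds miRNAs released by many tissues, and a changed share of a miRNA in serum may reflect more releasing cells, more release per cell or less of the other miRNAs, which cannot be told apart from counts.

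The mature sequences are shown because miR-192-5p has a close relative, miR-215-5p, while miR-194-5p has 2 genomic copies, and both features bear on which molecules a count stands for. Capitals mark the seed, bases 2 to 8.
mmu-miR-192-5p: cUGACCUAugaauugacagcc
mmu-miR-194-5p: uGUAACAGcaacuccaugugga
mmu-miR-215-5p: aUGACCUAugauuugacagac
Among 1679 mature mouse miRNAs in RefSeq (GRCm38.p6), 2 carried the seed of miR-192-5p, namely miR-192-5p and miR-215-5p, and 1 carried that of miR-194-5p. miR-215-5p differs from miR-192-5p at 3 of 21 bases, as C1A, A12U and C20A counted from the 5′ end, with the base of miR-192-5p first. As reads were mapped without mismatches, a full-length read of one does not match the other.

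miR-192-5p lies at chr19:6264857-6264877 on the plus strand (GRCm38.p6). miR-194-5p is encoded by Mir194-2 at chr19:6264658-6264679 and by Mir194-1 at chr1:185313325-185313346, both on the plus strand and with the same mature sequence. The hairpins Mir194-2 and Mir192 are 115 bases apart and overlap no other annotated gene in GENCODE M21. Mir194-1 and Mir215 are 195 bases apart, and Mir194-1 lies in an intron of 2010103J01Rik and, on the opposite strand, in an intron of Iars2. The hairpins are printed to show the mature sequence, in capitals, inside each precursor.
Mir192: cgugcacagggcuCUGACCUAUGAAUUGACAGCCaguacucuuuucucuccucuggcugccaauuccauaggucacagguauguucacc
Mir194-2: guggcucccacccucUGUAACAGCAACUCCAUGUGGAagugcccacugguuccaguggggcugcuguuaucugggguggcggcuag
Mir194-1: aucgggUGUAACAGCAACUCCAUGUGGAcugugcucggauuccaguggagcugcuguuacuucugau
Since the mature sequences of both Mir194 copies are identical, the counts cannot assign miR-194-5p to either locus, and how the authors counted reads matching several loci is not stated.

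The mouse tables of depleted libraries held 938706 to 2271549 counts and those of undepleted libraries 21235 to 97183, so values from depleted libraries have the smaller counting error. The undepleted aliquot of mouse 1069 before injection was the shallowest. Reads carry no molecular identifiers, so intervals and limits given here cover counting error only. Of a list of erythroid markers, 1 could be matched to an accession, miR-16-5p (MIMAT0000527). It is given beside the shares before and after injection, where it moved opposite to miR-192-5p and miR-194-5p.

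First, the levels of the 3 miRNAs were compared across the libraries. miR-192-5p was among the abundant serum miRNAs, at rank 14 to 32 in depleted and 16 to 29 in undepleted libraries. miR-194-5p, its transcript partner, ranked 55 to 89 in depleted libraries, where it was counted 549 to 3681 times. In undepleted libraries it was counted 0 to 9 times and was at 0 in 2 of 6. miR-122-5p, the most hepatocyte-restricted of the set, was close to the detection limit everywhere, with 1 to 11 counts in depleted and 0 to 3 counts in undepleted libraries. At 4 counts, the cut-off that the study used for detection, miR-122-5p was detected in 3 of 6 depleted and 0 of 6 undepleted libraries.

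In the depleted libraries before injection, miR-192-5p made up 7926, 6078 and 4419 CPM (counts scaled to a total of 1000000 mouse miRNA counts per library) in mice 1046, 1047 and 1069. After injection the shares were 10535, 12475 and 13246 CPM in the same order. In the undepleted aliquots they were 8242, 5900 and 4662 before and 9143, 12916 and 13976 after injection. Within both kinds of library, all 3 shares after injection were above all 3 before it, and mouse 1046 had the highest share before and the lowest after injection. How many of all miRNAs separated in this way by share was not counted. By normalised counts, 20.3% of the miRNAs tested in depleted and 22.2% of those tested in undepleted libraries did so. By that measure miR-192-5p separated in depleted but not in undepleted libraries.

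The share of miR-194-5p in depleted libraries was 808, 632 and 585 CPM before injection in mice 1046, 1047 and 1069. It was 1008, 1368 and 1620 CPM after injection. The mice kept the order they had for miR-192-5p at each time point. In undepleted libraries miR-194-5p was counted 0, 9 and 0 times before and 3 times in each library after injection, which gives no usable level for a single library.

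miR-122-5p was counted 3, 4 and 1 times before and 4, 3 and 11 times after injection in the depleted libraries of mice 1046, 1047 and 1069. The undepleted libraries held 3, 3 and 0 counts before and 1 count each after injection. For a library at 0, the limit is 3 counts of its total: 141 CPM for the undepleted library of mouse 1069 before injection, for both miR-122-5p and miR-194-5p, and 30.9 CPM for miR-194-5p in that of mouse 1046. Thus miR-122-5p could not be ranked between mice or time points at this depth.

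**Figure D1:**
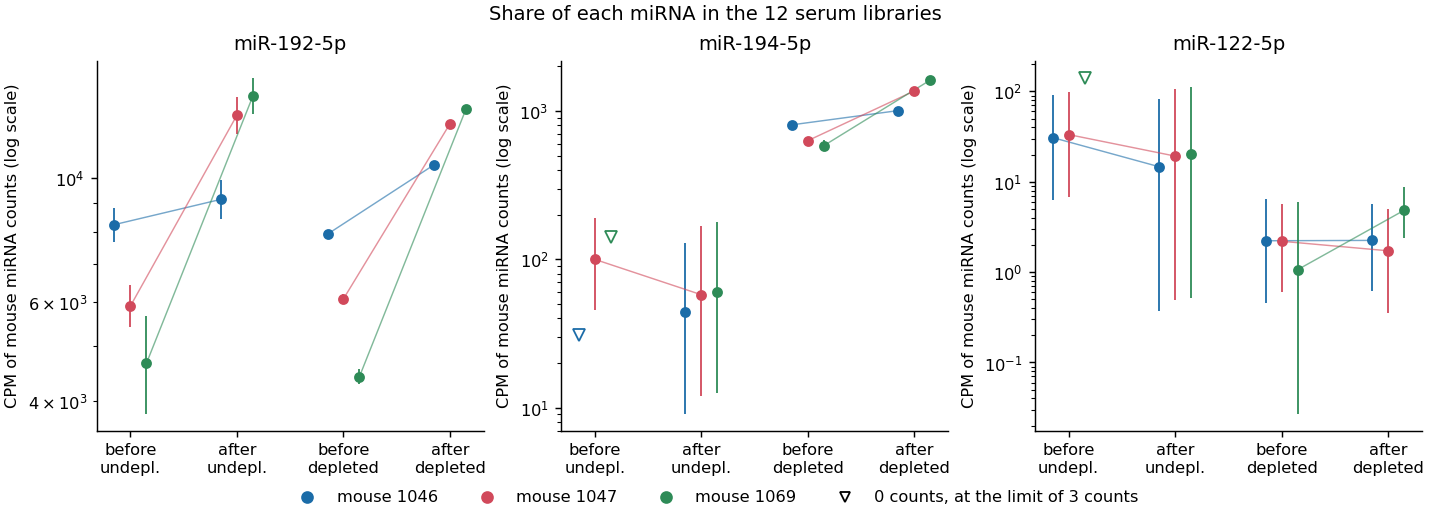
Share of the mouse miRNA counts (in CPM, log axis, scaled separately in each panel) of miR-192-5p, miR-194-5p and miR-122-5p in all 12 libraries, with exact 95% binomial intervals; lines join the sera of a mouse and open triangles mark libraries with 0 counts at the limit of 3 counts. miR-192-5p sits at the same height in both aliquots and higher after injection, miR-194-5p is far higher in depleted libraries, and miR-122-5p has wide intervals throughout.

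Next, the effect of the depletion on the 3 miRNAs was evaluated by comparing aliquots of the same serum. miR-194-5p was far higher in depleted libraries, miR-122-5p was lower on very few counts, and miR-192-5p was not called different. Summed over the 6 sera, the total rose 26.2-fold from 377955 to 9902053 mouse miRNA counts upon depletion. The summed counts of miR-192-5p rose 28.2-fold, from 3416 to 96482. Those of miR-194-5p rose 592-fold, from 18 to 10647. Those of miR-122-5p rose 2.89-fold, from 9 to 26.

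With DESeq2 on all 12 libraries and time point as a covariate, 8.36% of the 383 tested miRNAs were called different, which required at least a 2-fold change besides an adjusted p-value under 0.05. Of the 3 liver-enriched miRNAs 2 were called, in opposite directions. miR-194-5p was 1 of the 4.96% called higher and miR-122-5p 1 of the 3.39% called lower in depleted libraries.

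miR-194-5p went from 14.1 ± 13.2 normalised counts in undepleted libraries to 287.2 ± 115.8 in depleted ones (SD, n = 6 each). Its log2 fold change was 3.97 with a standard error of 0.40, or 15.6-fold (95% interval 9.08 to 26.9, DESeq2 adjusted p = 3.07e-21). This was the third largest rise among the tested miRNAs. That fit has no term for the serum shared by 2 aliquots. With each serum as a replicate block, the log2 fold change was 3.34 with a standard error of 0.50 (DESeq2 adjusted p = 6.13e-10). With counts under 4 in a library set to 0, an alternative chosen after seeing the data, miR-194-5p was called with a log2 fold change of 4.27 (DESeq2 adjusted p = 2.53e-06). Its depleted counts were 549 to 3681, so this setting removed only undepleted counts of it. The setting therefore could not lessen the difference and is no check of it. By the share within each serum, miR-194-5p was higher in the depleted aliquot of 6 of 6 sera, with a mean log2 ratio of 4.61 and an SD of 1.52 (n = 6 sera, exact sign-flip permutation test, two-sided p = 0.031, the smallest that 6 pairs can give). In 2 of these sera the undepleted count was 0, so the size of their ratio depends on the 0.5 counts added. With 1 count added the mean was 4.17.

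The size of the difference in miR-194-5p varied between sera. Before injection it was 6.32-fold in mouse 1047 (exact 95% interval 3.32 to 13.9), and against the limit of 3 counts per library it was at least 26.2-fold higher in mouse 1046 and at least 4.14-fold higher in mouse 1069. After injection it was 22.9-fold (7.82 to 111), 23.7-fold (8.10 to 115) and 26.7-fold (9.13 to 130) in mice 1046, 1047 and 1069. At the share of the depleted aliquot, the undepleted libraries would have held 78.5, 56.9 and 12.4 counts before and 68.7, 71.1 and 80.1 counts after injection. The observed counts, in the same order, were 0, 9, 0, 3, 3 and 3.

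**Figure D2:**
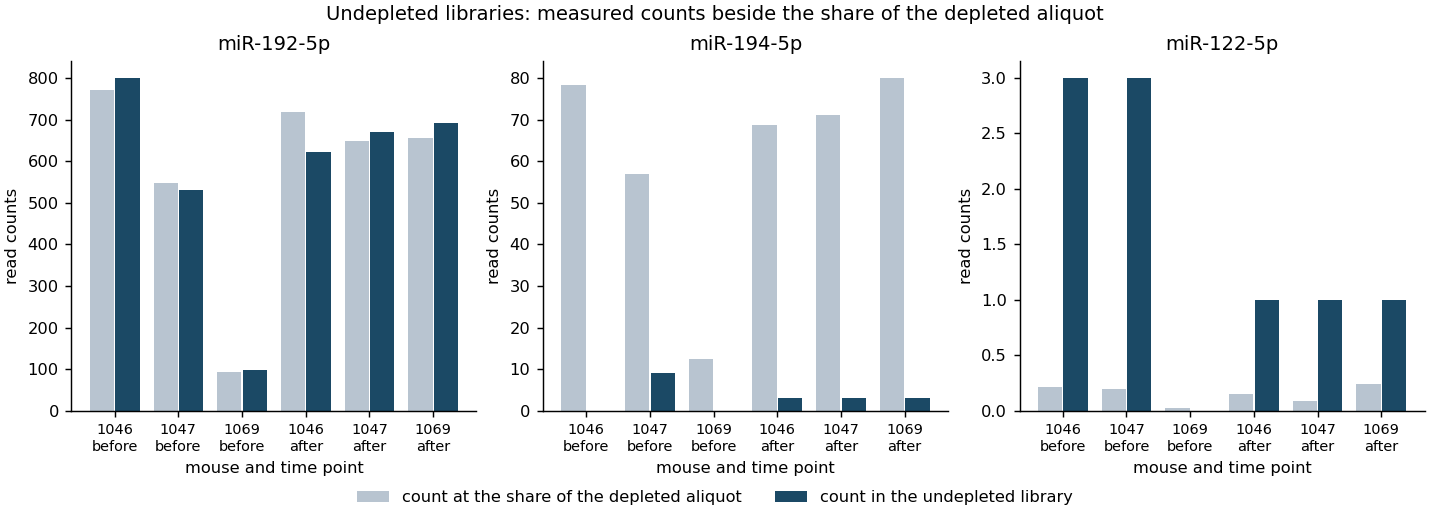
Read counts (linear axis from 0, scaled separately in each panel) in the 6 undepleted libraries, dark bars, beside the count that each would hold at the share measured in the depleted aliquot of the same serum, light bars. For miR-192-5p the bars are of similar height, for miR-194-5p the observed 0 to 9 counts stand beside 12.4 to 80.1, and for miR-122-5p the observed 0 to 3 counts stand beside less than 1 count.

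miR-192-5p, which shares its transcript with Mir194-2, was at 2853 ± 1145 normalised counts in undepleted and 2613 ± 972 in depleted libraries (SD, n = 6 each). The log2 fold change was -0.12 with a standard error of 0.23 (DESeq2 adjusted p = 0.859), and the 95% interval of the fold change ran from 0.671 to 1.26. It was higher in the depleted aliquot in 2 of 6 sera, and its mean log2 share ratio was -0.004 ± 0.111 (SD, n = 6, exact sign-flip permutation test, two-sided p = 0.9375). The ratio in single sera ranged from 0.948 to 1.15. With TMM scaling, which moved the median of all tested miRNAs by 0.23 on the log2 scale, the log2 fold change was 0.13 instead.

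The contrast between both partners was tested directly by the ratio of miR-194-5p to miR-192-5p within a library, which does not depend on library scaling. It rose upon depletion in 6 of 6 sera, by 4.62 on the log2 scale with an SD of 1.56 (n = 6 sera, exact sign-flip permutation test, two-sided p = 0.031, the smallest possible). This test was added after the counts had been seen. The 6 sera come from 3 mice, and averaged to 1 value per mouse the smallest p-value possible is 0.25.

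miR-122-5p was at 6.43 ± 4.20 normalised counts in undepleted and 0.696 ± 0.387 in depleted libraries (SD, n = 6 each), with a log2 fold change of -2.87 and a standard error of 0.64 (DESeq2 adjusted p = 0.000114). In the sera with a count in both aliquots, the share in the depleted aliquot was 0.0659 to 0.239 of that in the undepleted one, and in the serum of mouse 1069 before injection 1 count stood against 0, which gives no direction. Before injection the exact 95% intervals were 0.00965 to 0.538 in mouse 1046 and 0.0111 to 0.450 in mouse 1047. After injection, on 1 undepleted count each, all intervals included a ratio of 1. They ran from 0.0151 to 7.54, 0.00719 to 4.70 and 0.0348 to 10.3 in mice 1046, 1047 and 1069. From the summed counts, the share in depleted libraries was 0.110 of that in undepleted ones (exact 95% interval 0.0501 to 0.267). This call rests on 9 reads in undepleted libraries. With counts under 4 set to 0, the log2 fold change was -0.33 and no adjusted p-value was given. As every undepleted count was 0 to 3, the call could not survive that setting, which therefore does not test it. The call was lost without mouse 1046 (log2 fold change -2.28, DESeq2 adjusted p = 0.190), without mouse 1047 (-2.24, DESeq2 adjusted p = 0.0758) and in libraries after injection alone (-1.60, DESeq2 adjusted p = 0.158).

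**Figure D3:**
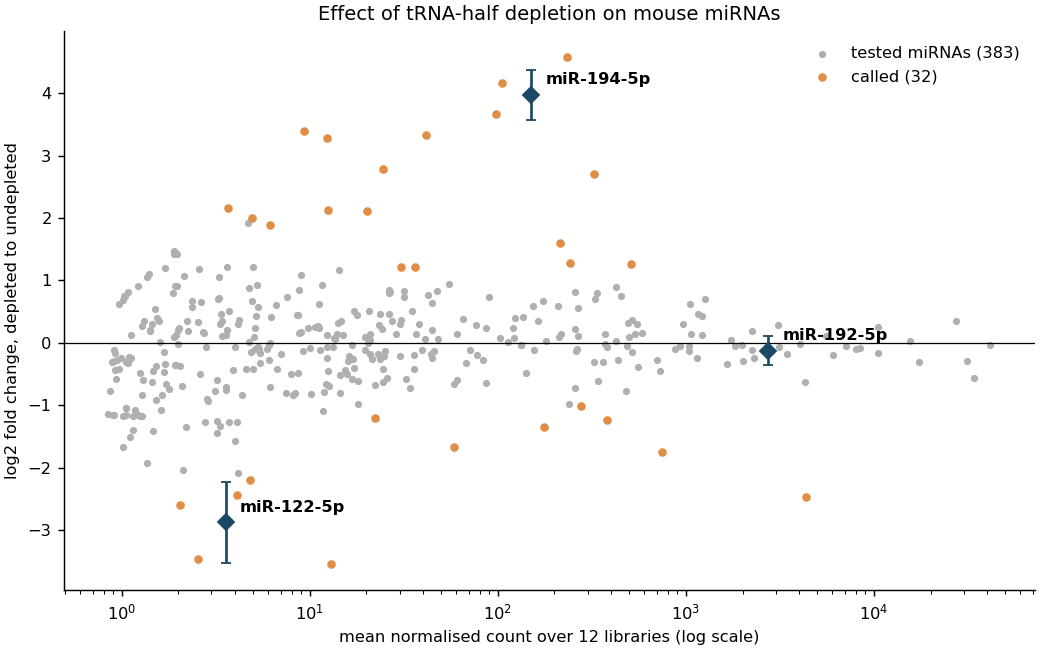
Log2 fold change from undepleted to depleted libraries (linear axis) against the mean normalised count over 12 libraries (log axis) for the 383 tested mouse miRNAs, in grey, with the 32 called ones in orange and the 3 liver-enriched miRNAs as dark diamonds with their standard error. miR-194-5p lies among the highest points at 3.97, miR-192-5p at -0.12 and miR-122-5p at -2.87 among miRNAs of very low counts.

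The levels before and after injection were then compared to assess the association of tumour burden with these miRNAs. By the study's criteria none of the 3 was called changed in either kind of library. In depleted libraries miR-192-5p and miR-194-5p had higher means after injection, by about the same factor, and in undepleted libraries miR-192-5p did. The size depended on the mouse and on the scaling, and mouse 1046 was nearly level on normalised counts. miR-122-5p in both kinds of library and miR-194-5p in undepleted ones had too few counts for a comparison. The fitted log2 fold change of undepleted miR-194-5p was 0.09 with a standard error of 0.48.

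In depleted libraries, miR-192-5p had 14294, 12185 and 6613 normalised counts before injection and 15060, 17976 and 19818 after it in mice 1046, 1047 and 1069. The groups did not overlap, although the gap was small. The means were 11031 ± 3968 and 17618 ± 2399 (SD, n = 3 each), a log2 fold change of 0.62 with a standard error of 0.29, or 1.54-fold (95% interval 1.04 to 2.27, DESeq2 adjusted p = 0.133). For comparison, 10.6% of the 310 tested miRNAs were called in this comparison, 7.42% were higher with an adjusted p-value under 0.05 alone, and in 20.3% all 3 values after injection were above all 3 before. miR-192-5p met only the last of these criteria.

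miR-194-5p had 1457, 1267 and 875 normalised counts in depleted libraries before injection and 1441, 1971 and 2424 after it. Here the groups overlapped, as mouse 1046 did not rise. The means were 1200 ± 296 and 1945 ± 492 (SD, n = 3 each), a log2 fold change of 0.64 with a standard error of 0.28, or 1.56-fold (95% interval 1.06 to 2.29, DESeq2 adjusted p = 0.107).

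In undepleted libraries, miR-192-5p had 499, 381 and 228 normalised counts before injection and 491, 696 and 752 after it in the same order of mice. The groups overlapped only through mouse 1046. The means were 370 ± 136 and 647 ± 137 (SD, n = 3 each), a log2 fold change of 0.73 with a standard error of 0.28, or 1.66-fold (95% interval 1.13 to 2.43, DESeq2 adjusted p = 0.0462). It passed the adjusted p-value but not the 2-fold cut-off. Among the 108 miRNAs tested there, 11.1% were called, 10.2% were higher with an adjusted p-value under 0.05 alone, and 22.2% had all 3 values after injection above all 3 before. With the mouse as a replicate block, the adjusted p-value of miR-192-5p was 0.123 (DESeq2), with TMM scaling 0.167 (DESeq2), and with edgeR's quasi-likelihood test 0.240.

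**Figure D4:**
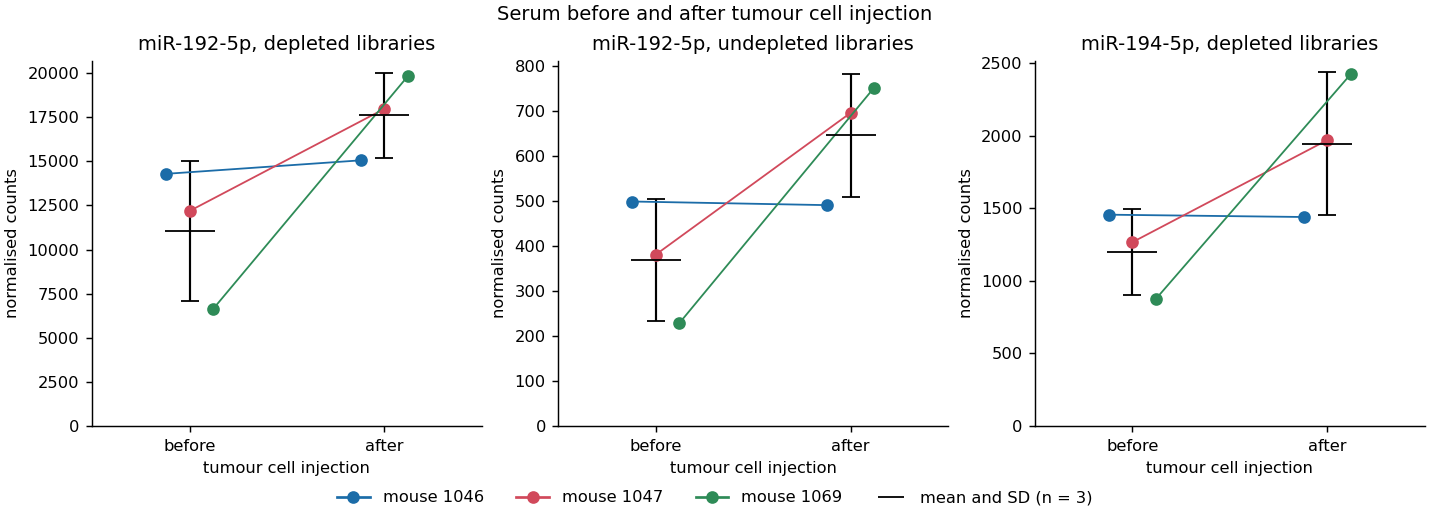
Normalised counts (linear axes from 0) before and after tumour cell injection of miR-192-5p in depleted and undepleted libraries and of miR-194-5p in depleted libraries, with lines joining the sera of a mouse and black bars for the mean and SD (n = 3). In all 3 panels mouse 1046 is nearly level, mouse 1047 is intermediate and mouse 1069 has the steepest line.

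The change differed between mice in the same order in each measurement. From before to after injection, the normalised counts of miR-192-5p in depleted libraries changed 1.05-fold in mouse 1046, 1.48-fold in mouse 1047 and 3.00-fold in mouse 1069. In the undepleted aliquots of the same sera the factors were 0.984, 1.83 and 3.30. For miR-194-5p in depleted libraries they were 0.989, 1.56 and 2.77. Both aliquots come from the same RNA, so they repeat the measurement of a serum and are no separate animals. Without mouse 1069, the log2 fold changes in depleted libraries were 0.32 for both miR-192-5p and miR-194-5p (DESeq2 adjusted p = 0.146 and 0.226). In undepleted libraries the log2 fold change of miR-192-5p was 0.38 without mouse 1069 (DESeq2 adjusted p = 0.206) and 0.68 without mouse 1047 (DESeq2 adjusted p = 0.998). Without mouse 1046 it was 1.13, and the change was called (DESeq2 adjusted p = 0.0490).

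Without size factors, as a share of all mouse miRNA counts, the rise was larger. In depleted libraries the share of miR-192-5p went from 6141 ± 1755 to 12086 ± 1397 CPM (SD, n = 3 each). In undepleted libraries it went from 6268 ± 1818 to 12011 ± 2540 (SD, n = 3 each). That of miR-194-5p in depleted libraries was 675 ± 117 and 1332 ± 308 CPM (SD, n = 3 each). Each was higher after injection in 3 of 3 mice, and none could pass a threshold of 0.05 with so few mice (exact permutation test of the log2 share, two-sided p = 0.1, the smallest value possible with 3 against 3, added after the data had been seen). That test ignores that both time points come from the same mice. Paired by mouse, each had a two-sided p = 0.25 by an exact sign-flip permutation test, the smallest possible.

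With total counts as size factors in DESeq2, the log2 fold changes were 0.92 for miR-192-5p (adjusted p = 0.00794) and 0.92 for miR-194-5p (adjusted p = 0.00721) in depleted libraries and 0.86 for miR-192-5p in undepleted ones (adjusted p = 0.00713), each still below the 2-fold cut-off. This scaling moved the median of all tested miRNAs by 0.24 in depleted and 0.11 in undepleted libraries on the log2 scale. It also moved the calls in depleted libraries from 15 higher and 18 lower to 32 higher and 5 lower. Over the same interval, miR-16-5p, an abundant miRNA of red blood cells, fell from 119916 ± 9896 to 66874 ± 10443 CPM in depleted libraries (SD, n = 3 each). In undepleted libraries it fell from 165887 ± 18368 to 89634 ± 16546. Its share was lower after injection in 3 of 3 mice in each kind of library (exact permutation test, two-sided p = 0.1, the smallest possible). Paired by mouse, the exact sign-flip permutation test gave a two-sided p = 0.25 in each, again the smallest possible. The part of miR-16-5p in the higher shares of miR-192-5p and miR-194-5p was not tested.

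The ratio of miR-192-5p to miR-194-5p does not depend on any scaling. In depleted libraries it was 9.81, 9.62 and 7.56 counts of miR-192-5p per count of miR-194-5p before injection and 10.5, 9.12 and 8.17 after it in mice 1046, 1047 and 1069. The values of both time points overlapped, with log2 ratios of 3.16 ± 0.21 and 3.20 ± 0.18 (SD, n = 3 each, difference 0.04, exact permutation test, two-sided p = 0.7, smallest possible 0.1). In undepleted libraries the ratio was 59 counts per count in mouse 1047 before injection and 208, 224 and 230 in the 3 mice after it, and it could not be formed for the other two sera. The log2 ratio of miR-122-5p to miR-192-5p differed by -0.57 between time points in depleted libraries (exact permutation test, two-sided p = 0.3) and by -1.21 in undepleted ones (exact permutation test, two-sided p = 0.1). The ratio of miR-122-5p to miR-194-5p differed by -0.53 (exact permutation test, two-sided p = 0.2) and -1.68 (exact permutation test, two-sided p = 0.4). All of these ratios with miR-122-5p rest on 0 to 11 counts of it per library.

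**Figure D5:**
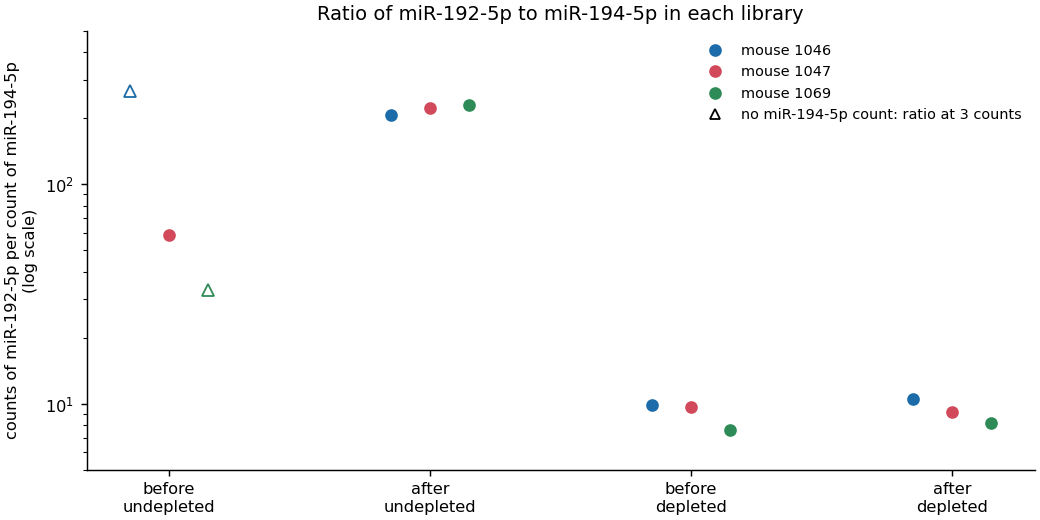
Counts of miR-192-5p per count of miR-194-5p (log axis) in each of the 12 libraries by group, with open triangles, set at 3 counts of miR-194-5p, where none was counted. The 6 depleted libraries lie between 7.56 and 10.5 at both time points, and the undepleted libraries with a count of miR-194-5p lie at 59 and above.

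Whether the effect of tumour cell injection differed between depleted and undepleted libraries was tested with an interaction term. None of the 3 was called, with interaction log2 values of -0.04 (standard error 0.49) for miR-192-5p, 0.63 (0.88) for miR-194-5p and 1.24 (1.53) for miR-122-5p, each with a DESeq2 adjusted p = 0.998. In this comparison 0% of the 874 miRNAs were called, and 3 had an unadjusted p-value under 0.05. With edgeR's quasi-likelihood test 0 were called and 11 had an unadjusted p-value under 0.05. When each serum was entered as a replicate block, the interaction values were -0.04 (0.11) for miR-192-5p, -0.51 (1.57) for miR-194-5p, whose sign thus depended on the block, and 0.93 (1.72) for miR-122-5p (DESeq2 adjusted p = 0.999 for each).

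The miRNAs whose levels were most like those of the set were sought among those with a mean of at least 50 normalised counts in depleted libraries, by Pearson's r of log2(normalised count + 1) over 6 libraries. These libraries are 3 mice at 2 time points, so the values describe a shared pattern and carry no test. miR-194-5p ranked 9th of 212 for miR-192-5p, at r = 0.951, behind MIMAT0000609 (0.988), MIMAT0005443 (0.982) and MIMAT0000590 (0.977) among others. In turn, miR-192-5p ranked 3rd of 212 for miR-194-5p, behind MIMAT0000704 (0.995) and MIMAT0000590 (0.984). For miR-122-5p, the first 3 of 213 were MIMAT0000387 (0.858), MIMAT0000670 (0.824) and MIMAT0017075 (0.797), while miR-194-5p ranked 13th (0.693) and miR-192-5p 16th (0.687). With 1 to 11 counts of miR-122-5p per library, its pattern is mostly counting error.

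Reads were also counted against human miRNAs, among which 466 were listed. The human entry with counts nearest to those of miR-122-5p, MIMAT0000421, held the same 35 counts over the 12 libraries, with no library different. That nearest to miR-194-5p, MIMAT0000460, held the same 10665 counts, again with no library different. For miR-192-5p the nearest, MIMAT0000222, held 99873 counts against 99898, with differences of at most 9 counts in 9 of 12 libraries. Entries were paired by their counts and not by name. In the sera after injection, reads of these 3 miRNAs thus cannot be assigned to the mouse or to the human tumour cells from the counts. The sera before injection were drawn before any human cells were given.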

How the data were processed

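Counts per mature miRNA, not normalised, were deposited by the authors as a mouse and a human table for each of 12 libraries (TruSeq small RNA kit, 50 µl serum, 15 PCR cycles). The authors had trimmed reads with Cutadapt 1.8.1, mapped them with Bowtie 1.1.2 without mismatches and assigned them by miRBase coordinates on GRCm38 or GRCh37. Groups followed the labels. The 3 miRNAs and all lists were chosen with earlier results of these data known.

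Mouse counts were fitted over all miRNAs with DESeq2 1.42.0 in R 4.3.3 (median-of-ratios size factors, Wald test, zero-centred prior, Benjamini-Hochberg adjustment), with a call at an adjusted p-value under 0.05 if the change was 2-fold or more. Depleted and undepleted libraries were fitted separately for time point, and all 12 libraries for depletion with time point as a covariate. For the interaction the prior was omitted and no fold cut-off applied. Normalised counts of the comparison between aliquots come from the size factors of all 12 libraries, those of the comparison between time points from the libraries of one kind. Shares and ratios (0.5 counts added in log2 tests) were tested by exact permutation in Python 3.11.15 with SciPy 1.17.1. The pipeline was tested on simulated data. Alternatives included edgeR 4.0.16.

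Same-numbered libraries come from the same mouse. Deviations from group means correlated between aliquots of a serum (r 0.430 to 0.617, 6 of 6 over 0.1) but hardly between time points of a mouse (r -0.415 to 0.101). No replicate pair agreed within sampling noise. P-values between time points measure the spread between 3 mice. The main fits of depletion and interaction treat 12 libraries as separate units, and the sign-flip tests 6 sera. These come from 3 mice, so their p-values do not measure the spread between mice. The tables used pair no accessions with names, so the planned lists of marker miRNAs and of other liver miRNAs could not be used, except 1 of 11 erythroid names, miR-16-5p, whose accession the study gives. Named besides the 3 were miR-16-5p and the 3 miRNAs most like each.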

Additional observations from a re-analysis of the deposited data

How the results depend on the processing

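Of 176 recomputed values, 145 kept their direction and their side of the threshold or stayed within 1.5 times the count. For fold changes the threshold was the call, which includes the 2-fold cut-off. Undepleted miR-192-5p thus counted as kept although its adjusted p-value went from 0.0462 (DESeq2) to 0.240 (edgeR). The ratio tests of 3 against 3 could not cross 0.05, and their sign-flip versions reuse the same difference. Part of the 145 was therefore fixed in advance. The number of called miRNAs in depleted libraries before and after injection (33) became 52 without the fold cut-off and 11 to 32 with a mouse left out, the lowest without mouse 1047. In undepleted libraries (12) it became 21 and 1 to 11, again lowest without mouse 1047. For depletion (32) it became 55 without the fold cut-off, 57 with counts under 4 set to 0, 17 in libraries before injection alone and 19 to 33 with a mouse left out, the lowest without mouse 1046. With the replicate block the counts were 26, 11 and 27. The log2 fold change of miR-192-5p upon depletion turned to 0.13 with edgeR and with TMM factors, and its interaction term ranged from -0.162 to 0.0788 with a mouse left out. Its mean log2 share ratio between aliquots ranged from -0.0430 to 0.0342 with a mouse left out. The undepleted log2 ratio of miR-192-5p to miR-194-5p, -0.47 between time points, was 0.0292 with 1 count added and ranged from -1.59 to 0.88 with a mouse left out. The log2 share ratios between aliquots of miR-122-5p (-3.68 to -3.35) and miR-194-5p (4.02 to 5.19) kept their direction with a mouse left out, as did the replicate block by mouse (-3.53 and 4.61, exact permutation p = 0.25 each), but 4 sera or 3 mice cannot give a p-value under 0.05. Leaving out a mouse also lowers the number of libraries, and otherwise the cause of these changes was not tested. For miR-122-5p the value of 1 serum, with 0 undepleted counts, is set by the 0.5 counts added, so its direction over all 6 sera and its p-value are not a result. Low counts limit miR-122-5p in all libraries and the comparison of miR-194-5p between time points in undepleted ones.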
